A study of Drosophila melanogaster with 36 samples.

Results

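Local contact density was used to pick out the stretches of the Drosophila genome that make the fewest contacts with their own surroundings. The density of a 40-kb bin is the mean, over all bins 40 to 400 kb away on the same chromosome arm, of the observed contact signal divided by the mean signal of the arm at that distance, so that a value of 1 is the average of the arm. Bins were ranked by this density in each of 4 Control-KD contact matrices, the 4 ranks were averaged, and the lowest 10% were taken. Of 2977 bins on arms X, 2L, 2R, 3L and 3R, 2942 were kept by the authors in all 9 matrices and 2450 of these lay at least 2 Mb from the ends of their arm. The 245 lowest of the 2450 are called low-density bins. Because the 4 Control-KD matrices chose them, their low density in those matrices is a description and was not tested.

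Hi-C measures how often pieces of chromatin lie close together in the nucleus, by ligating and sequencing crosslinked restriction fragments. Fly chromosomes fold into topologically associating domains (TADs), within which contacts are frequent, and the regions between compact domains are known to be rich in active genes and to make fewer contacts with their neighbours. Chromatin is compacted by linker histone H1, which binds where DNA enters and leaves the nucleosome, and in heterochromatin by HP1a, which binds methylated histone H3 lysine 9.

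The matrices come from OSCs, cultured somatic cells of the fly ovary, where the nuclear Argonaute protein Piwi, guided by piRNAs, silences transposons. Cells were transfected with siRNA against Piwi, Nxf2 (a partner of Piwi in silencing), H1, Egg (the histone H3 lysine 9 methyltransferase Eggless) or HP1a, and each control received siRNA against EGFP. All groups share the same cell line and carry no other stated alteration. The labels give 2 days of depletion for HP1a-KD and its control. The methods give 4 days for Piwi-KD, with a second transfection for depletions of that length, and the length for Nxf2-KD, H1-KD and Egg-KD is not given in the sources used here. H1-KD and Egg-KD share 1 Control-KD, while Piwi-KD, Nxf2-KD and HP1a-KD have 1 each. Contact maps carry no readout of RNA or protein, so depletion and cell identity could not be checked from these files.

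The authors summed 2 replicates into each of the 9 matrices before deposit, so replicates cannot be compared and neither an n nor a p-value can be given. Differences are instead set beside those between the 6 pairs of Control-KD matrices, whose root mean square per bin, the control-pair spread, was 0.0594 on the log2 scale over all eligible bins and 0.0592 over the low-density bins. These pairs also differ by experiment, and the spread between replicates of one experiment is not known. A bin was counted as changed when its log2 ratio passed 3 control-pair spreads, 0.178. Contacts recovered from the deposited signal numbered 25463370 in H1-KD, the shallowest matrix, and up to 73205693 in Piwi-KD. The median low-density bin had between 5006 and 13966 contacts 40 to 400 kb away, a counting error of 0.846% to 1.41%.

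One of the low-density bins, chr3L:17520001-17560000 of the dm3 genome build, holds the target of an oligo-FISH probe with which the study viewed a TAD on 3L under the microscope, and a bin 400 kb away holds the partner probe in the same TAD. The first 3 of the 80 oligos of the probe in the low-density bin and the first of the 80 of its partner are shown because they are designed sequences that tie this class of bins to a place in the genome. Capitals mark the target-specific part and lower case the 19-nt adaptors shared by the set. The strand of the target is not given, and the sequences stand as listed by the study.

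TAD probe 1, oligo 1, chr3L:17550003-17550028: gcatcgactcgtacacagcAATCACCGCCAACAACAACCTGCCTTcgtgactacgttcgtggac
TAD probe 1, oligo 2, chr3L:17550029-17550057: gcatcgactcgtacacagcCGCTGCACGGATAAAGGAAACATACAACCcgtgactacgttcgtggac
TAD probe 1, oligo 3, chr3L:17550058-17550083: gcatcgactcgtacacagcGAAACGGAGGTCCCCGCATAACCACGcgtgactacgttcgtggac
TAD probe 2, oligo 1, chr3L:17947436-17947461: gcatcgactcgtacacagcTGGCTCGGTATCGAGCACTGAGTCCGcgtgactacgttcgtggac

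The bin of TAD probe 1 had a density of 0.645, 0.656, 0.654 and 0.659 in the Control-KD matrices of the Piwi, Nxf2, H1 and Egg, and HP1a series. Its density was 0.671 with Piwi-KD, 0.676 with Nxf2-KD, 0.687 with H1-KD, 0.675 with Egg-KD and 0.662 with HP1a-KD. All 5 knockdown values lay above the 4 control values, yet the log2 changes, 0.056, 0.043, 0.072, 0.046 and 0.007, were each below the limit of 0.178. The bin of TAD probe 2, chr3L:17920001-17960000, was no low-density bin, with 0.989, 1.01, 1.03 and 1.01 in the controls. It fell to 0.774 in Piwi-KD, 0.839 in Nxf2-KD, 0.809 in Egg-KD and 0.852 in HP1a-KD, past the limit in each, and was 1.02 in H1-KD. Among all other eligible bins this one had the largest mean loss of rank over the 5 knockdowns. The signal between both probe bins, relative to the arm mean at 400 kb, was 0.929, 1.09, 1.13 and 1.01 in the controls and 0.810, 0.990, 0.915, 1.09 and 0.833 in the Piwi, Nxf2, H1, Egg and HP1a knockdowns. The log2 changes of this pair were -0.20, -0.15, -0.30, -0.042 and -0.27, while the controls differed among themselves by up to 0.28. The H1-KD value rests on 148 contacts, a counting error of 8.22%.

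Low-density bins were present on every arm, in unequal shares. They made up 13.8% of the eligible bins of X (63 of 457), 13.1% of 2L (61 of 467), 10.7% of 3L (54 of 507), 7.58% of 3R (45 of 594) and 5.18% of 2R (22 of 425). They lay together: the 245 bins formed 82 runs of adjoining bins, of which 29 were single bins and 13 held 5 or more. Runs of 2 or more held 216 of the 245 bins, or 88.2%. Adjoining bins have most of their partner bins in common, though they share only the contact between them, and are not taken as independent. The median run was 80 kb long, and the median gap between runs of an arm was 600 kb.

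The longest run was chr2L:7920001-8520000, 15 bins or 600 kb, with a mean density of 0.632, 0.638, 0.613 and 0.610 in the 4 controls. In the Piwi, Nxf2, H1, Egg and HP1a knockdowns it was 0.650, 0.653, 0.661, 0.641 and 0.657, all above the 4 controls. The next longest, of 10 bins each, were chr2L:4880001-5280000, with 0.580 to 0.598 in the controls and 0.608 to 0.615 in the knockdowns, and chr3L:9400001-9800000, with 0.605 to 0.628 and 0.628 to 0.664.

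The lowest bin of all, chr3L:20440001-20480000, was a run of its own. Its density was 0.491, 0.495, 0.486 and 0.495 in the controls and 0.490, 0.503, 0.490, 0.481 and 0.485 in the Piwi, Nxf2, H1, Egg and HP1a knockdowns. It kept the lowest place of all 2450 bins in each of the 5 knockdown matrices, and its largest change, -0.029 in HP1a-KD, was close to its largest difference between controls, 0.028. The other runs of lowest mean rank were chr3L:3160001-3240000 (0.582 to 0.602 in the controls), chr2R:14920001-14960000 (0.577 to 0.616), the 10-bin run of 2L and chr2R:13360001-13600000 (0.599 to 0.626). At the upper end, the last bin inside the threshold, chrX:8200001-8240000, had densities of 0.701 to 0.727 in the controls, and the first outside it, chr3R:25720001-25760000, 0.712 to 0.718. The 2 bins before that last one, chr3L:19000001-19040000 and chr3L:8800001-8840000, had 0.702 to 0.733 and 0.707 to 0.725, and the 2 after the first one outside, chrX:2080001-2120000 and chr3L:8400001-8440000, had 0.695 to 0.747 and 0.697 to 0.741. No gap separated low-density bins from the rest.

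In the 4 controls, the median density of the low-density bins was 0.671, 0.669, 0.654 and 0.658, for the Piwi, Nxf2, H1 and Egg, and HP1a series. In matrices that had no part in choosing the bins, the median was 0.672 in Piwi-KD, 0.683 in Nxf2-KD and 0.696 in H1-KD, and both Egg-KD and HP1a-KD had 0.663. The H1-KD median was the highest of the 9, and the Nxf2-KD and Piwi-KD medians also lay above the 4 controls. Values above all 4 controls are favoured by choosing bins that were low in them, so such counts here are descriptions. In the Piwi, Nxf2, H1, Egg and HP1a knockdowns, 48.2%, 55.5%, 74.7%, 37.6% and 38.4% of the low-density bins lay above all 4, beside 38.3%, 31.3%, 47.1%, 29.3% and 36.2% of all eligible bins. The other eligible bins had medians near the arm average, 0.944 to 0.949 in the controls, and the highest 10% had 1.38 to 1.41.

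**Figure D1:**
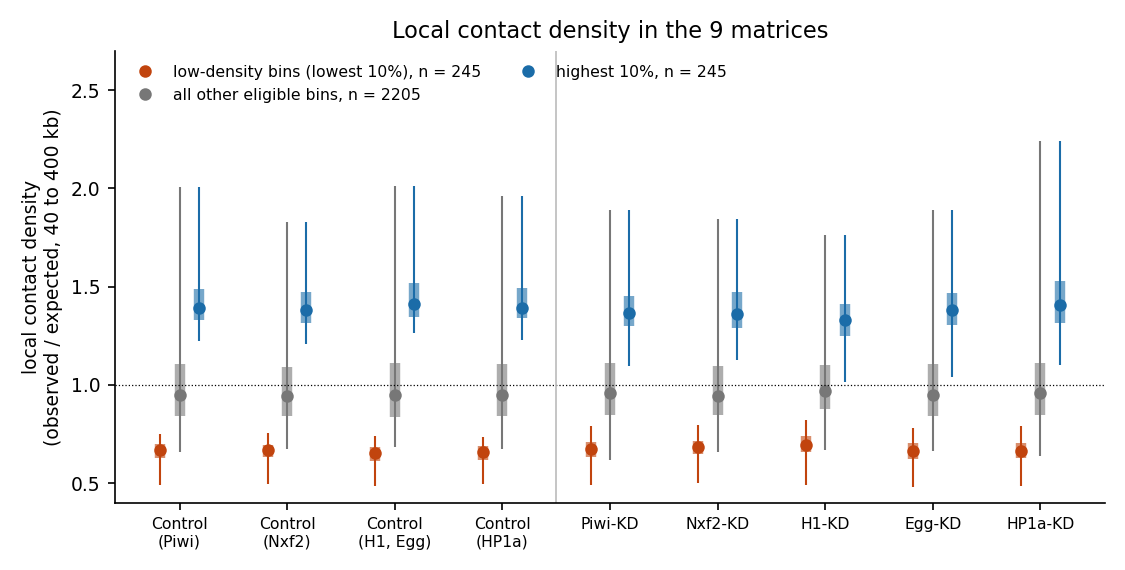
Local contact density (observed over expected, 40 to 400 kb) in the 4 Control-KD matrices, left of the grey line, and the 5 knockdown matrices. Dots are medians over bins, thick bars the middle quartiles and thin lines the full range; all other eligible bins include the highest 10%. In each matrix the median of the low-density bins lay below the middle quartiles of the other bins, though the full ranges overlap, and it was highest, at 0.696, in H1-KD.

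Most low-density bins kept their place upon depletion. Of the 245, 199 were among the lowest 10% of Piwi-KD (81.2%), 204 of Nxf2-KD (83.3%), 197 each of H1-KD and HP1a-KD (80.4%) and 203 of Egg-KD (82.9%). For comparison, when the bins were chosen on 3 Control-KD matrices, 88.6% to 92.7% were among the lowest 10% of the control left out, so each knockdown fell below that range. In 150 of the 245 bins (61.2%) the density was in the lowest 10% of all 5 knockdown matrices, and in 8 of none. Nearly all stayed in the lowest 20%, with 243 of the 245 in HP1a-KD and 244 in the other knockdowns. The bins that left the lowest 10% mostly lay above the median control rank of the low-density bins. This held for 46 of 46 in Piwi-KD, 40 of 41 in Nxf2-KD, 47 of 48 with H1-KD and 41 of 42 with Egg-KD. With HP1a-KD it held for 45 of 48. Depending on the knockdown, the median control rank of the bins that left was 202 to 213, beside 131.5 for all low-density bins.

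The place of these bins depended on the ICE correction, which gives every bin of a matrix the same total signal. With the contacts recovered from before that correction, the density of the low-density bins was still reduced, with control medians of 0.750 to 0.776 beside 0.988 to 0.999 in other bins. However, only 20.8% to 22.9% of them were in the lowest 10% of a control, and 20.4% to 25.3% in that of a knockdown. Bins of low coverage took those places: the other bins there had 0.453 to 0.476 of the median coverage in the controls. When the recovered local contacts were instead taken as a share of all contacts of a bin, a measure added after the data were seen, 96.7% to 97.1% of the low-density bins were below the eligible median in the controls, and 45.3% to 50.2% were in the lowest 10%.

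Low coverage itself was not a mark of the low-density bins. Their median number of recovered contacts was 1.07 to 1.12 times that of the other eligible bins in the controls and 1.02 to 1.11 times in the knockdowns. Between 40% and 47.8% of them lay below the eligible median of coverage, depending on the matrix. Gene annotation, HindIII sites and base composition of the bins were not analysed here, since no dm3 reference was used.

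The deficit varied with distance. In the controls, the mean observed over expected signal of low-density bins was 0.840 to 0.922 with the adjoining bin, fell to 0.545 to 0.570 at 160 kb, and rose to 0.731 to 0.768 at 400 kb. Distances that the rule did not use gave other values. Contacts within the bin itself stood at 1.01 to 1.10, beside 0.977 to 0.989 in the other eligible bins. Those from 440 kb to 1 Mb stood at 0.949 to 0.983 (beside 0.945 to 0.948). From 1 to 2 Mb the values were 1.07 to 1.10 (beside 0.960 to 0.964), and over 2 Mb 1.16 to 1.18 (beside 0.979 to 0.982). Contacts with other arms, relative to the mean of the bins of the same arm, reached 1.16 to 1.21 (beside 0.945 to 0.953). Low-density bins thus made fewer contacts nearby and more far away, and because each bin has the same total after ICE, these shares are tied to each other. As a part of the bin total in the controls, contacts 40 to 400 kb away made up 26.1% to 29.1%, beside 37.1% to 40.7% in other bins, and contacts with other arms 20.1% to 22.9%, beside 15.5% to 18.6%.

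**Figure D2:**
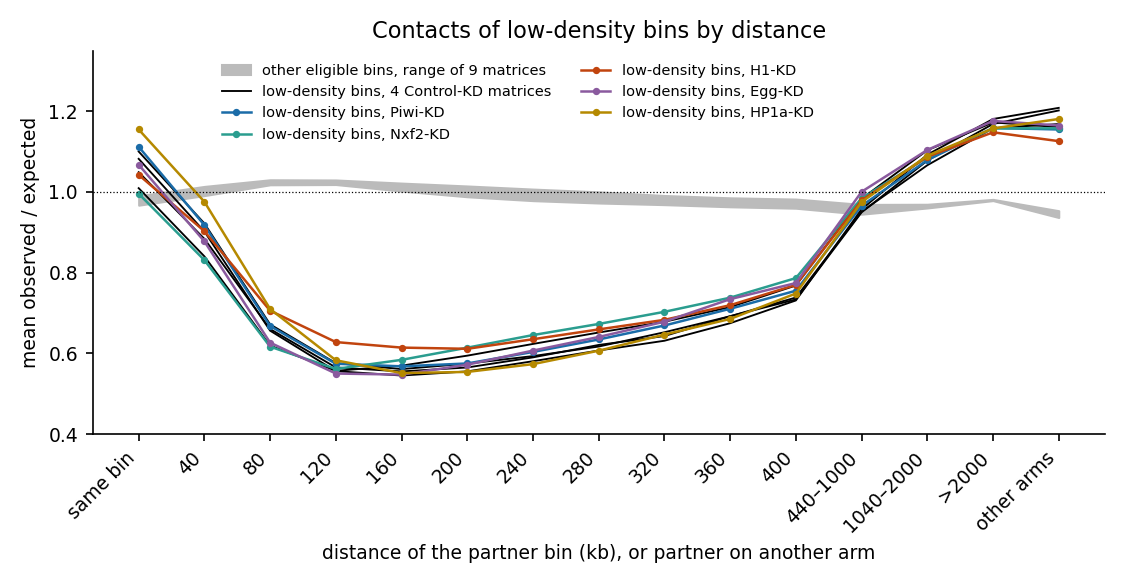
Mean observed over expected signal of the low-density bins by distance to the partner bin in kb, with partners on other arms at the right. Black lines are the 4 Control-KD matrices, coloured lines the knockdowns and the grey band the range of other eligible bins over the 9 matrices; the value was lowest at 120 to 200 kb in each matrix and above 1 beyond 1 Mb, and the H1-KD line lay above all controls from 80 to 200 kb and below them with other arms.

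The deficit was on both sides of a bin. Partners on the left and on the right each had a mean below 1 in 245 of 245 low-density bins in each control, and in 244, 244, 242, 243 and 240 of them in the Piwi, Nxf2, H1, Egg and HP1a knockdowns. In the other eligible bins this was true of 31.6% to 33.0% in the controls. Both sides make up the density that chose the bins in the controls, so the control counts are largely set by the choice. Contacts that cross a low-density bin join a bin on its left to one on its right, up to 400 kb apart. They do not include the bin itself, but the rule used them for the density of the bins at both ends. Those ends can be low-density bins, and adjoining low-density bins share such pairs, so crossing contacts are not independent of the choice. The median of crossing contacts was 0.599 to 0.649 in the controls and 0.600 to 0.666 in the knockdowns, beside 0.909 to 0.913 and 0.907 to 0.940 for the other eligible bins. The 29 isolated bins, which have no low-density neighbour, had crossing medians of 0.766 to 0.786 in the controls, and 69.0% to 72.4% of them lay below the eligible median.

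Density returned to near the arm average within about 400 kb. Averaged over the lowest bin of each of the 82 runs, it was 0.633 to 0.654 in the controls, 0.720 to 0.732 and 0.711 to 0.729 at 40 kb on either side, and 0.978 to 0.983 and 0.953 to 0.959 at 400 kb. The centre was picked as the lowest value in these controls, and 4 of the 5 knockdowns stood above the highest control there, H1-KD with 0.686, Nxf2-KD with 0.669, Piwi-KD with 0.658 and HP1a-KD with 0.655, while Egg-KD had 0.650. At 40 kb on each side, H1-KD had 0.767 and 0.756 and Nxf2-KD 0.739 and 0.739, both above all 4 controls.

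**Figure D3:**
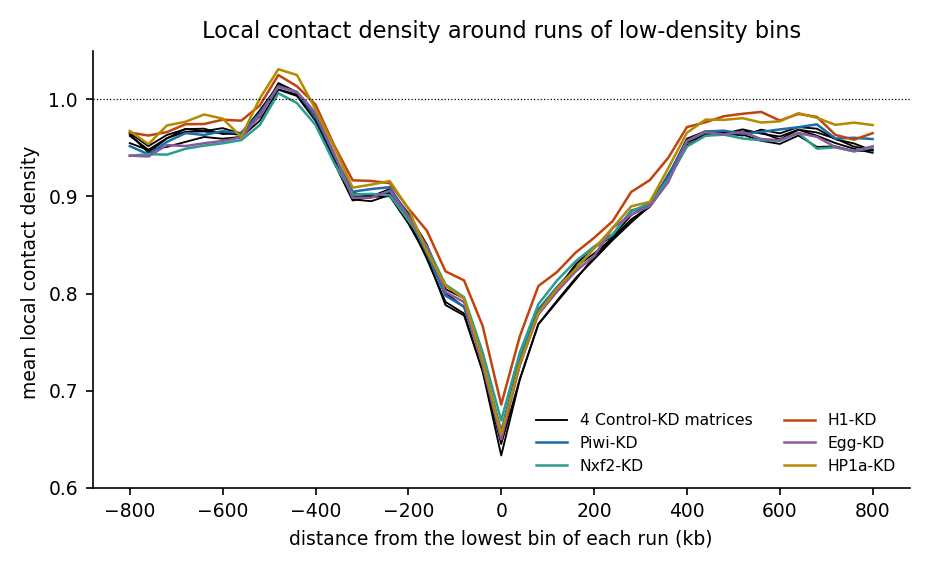
Mean local contact density against the distance in kb from the lowest bin of each of the 82 runs, in the 4 Control-KD matrices (black) and the 5 knockdowns (colours). The centre was chosen as the lowest bin in the controls, where the mean was 0.633 to 0.654, and the knockdowns ranged from 0.650 in Egg-KD to 0.686 in H1-KD.

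Far away, low-density bins contacted each other more than they contacted dense bins. For 4613 pairs of low-density bins at least 2 Mb apart on an arm, the signal corrected for the distal total of each bin was 1.18, 1.19, 1.17 and 1.16 in the controls and 1.16, 1.19, 1.15, 1.17 and 1.17 in the Piwi, Nxf2, H1, Egg and HP1a knockdowns. Pairs of a low-density bin with one of the highest 10% had 0.857 to 0.868 in the controls and 0.847 to 0.881 in the knockdowns. Pairs of dense bins also exceeded 1, at 1.16 to 1.18 in the controls. For the 23455 pairs of low-density bins on different arms, the values were 1.16, 1.16, 1.15 and 1.14 in the controls and 1.14, 1.16, 1.12, 1.14 and 1.13 in the knockdowns, in the same order. The preference was thus present in all 9 matrices, though not at each bin: 84.5% to 86.5% of the low-density bins had a between-arm mean above 1 in the controls. For pairs on different arms, the log2 ratio to the own control was -0.041 in H1-KD and -0.025 in Piwi-KD. Both were beyond the largest difference between controls, 0.020. Ratios over the other controls were not computed. The Piwi-KD value, 1.137, lay close to the 1.143 of the HP1a-series control, while that of H1-KD was 1.121. For pairs on the same arm all 5 ratios were within the largest control difference, 0.032.

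The next question was how the local density of these bins moved upon each depletion. The median log2 change over the 245 bins was 0.114 for H1-KD, 0.048 for Egg-KD, 0.032 in Nxf2-KD, 0.025 in Piwi-KD and 0.025 in HP1a-KD. The same median between 2 controls ranged in size from 0.011 to 0.043. Over their own controls, H1-KD and, by a small margin, Egg-KD were beyond it, but apart from H1-KD this turned with the control. Over the Control-KD that H1-KD and Egg-KD share, Piwi-KD (0.059), Nxf2-KD (0.074) and HP1a-KD (0.045) were beyond it too, as were Piwi-KD (0.045) and Nxf2-KD (0.060) over that of the HP1a series. Egg-KD was within it over the other 3 controls, with 0.016, 0.0053 and 0.031 for the Piwi, Nxf2 and HP1a series. The medians over all 2450 eligible bins were 0.035, 0.005, 0.008, 0.011 and 0.010 in the same order. When bins were instead chosen on the 3 controls of other series, the medians were 0.112, 0.046, 0.031, 0.024 and 0.023, nearly as before.

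**Figure D4:**
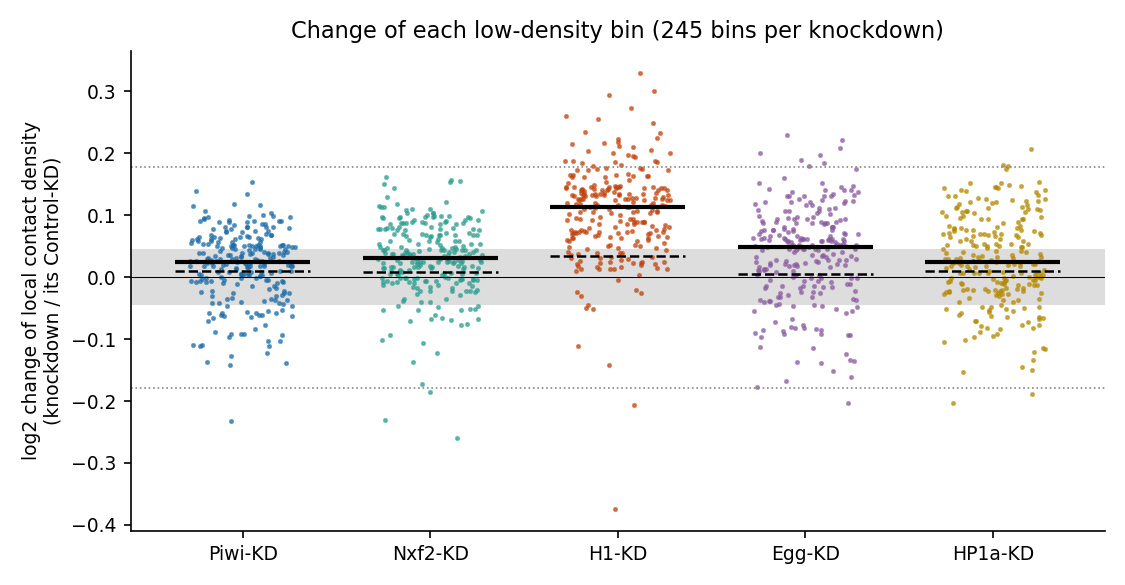
Log2 change of local contact density, knockdown over its own Control-KD, for each of the 245 low-density bins. Solid bars are medians over these bins, dashed bars medians over all 2450 eligible bins, the grey band the largest median of a control pair (0.043) and dotted lines the limit of 0.178; H1-KD, at 0.114, was well above the band and Egg-KD, at 0.048, at its edge.

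Relative to the arm mean, the density of most low-density bins was higher in H1-KD than in its control, by a small amount. As a share of the bin total, contacts 40 to 400 kb away were not higher. That share changed by -0.011, with 44.9% of the low-density bins higher (largest control difference 0.159). The log2 ratio of density was above 0 in 233 of 245 bins (95.1%), beside 62.5% of all eligible bins, and the median rise was 1.08-fold. Over the same control, 79.2% of the low-density bins were above 0 in the Piwi-series control and 78.4% in the Nxf2-series control. The shared control over that of the HP1a series gave 39.2%. Past the limit, 31 bins in 22 of the 82 runs were higher, or 12.7%, where 4.73% of all eligible bins were, and 2 were lower, or 0.816%, where 4.04% of all eligible bins were. Their median was 0.753 in H1-KD and 0.649 in its control. They were spread over the 5 arms, 9 on X, 6 on 2L, 3 on 2R, 7 on 3L and 6 on 3R. By the length of their runs, the median change was 0.124 in single bins, 0.115 in runs of 2 to 4 and 0.109 in runs of 5 or more.

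The size of the H1-KD change depended on the control. It was 0.070 over the Piwi-series Control-KD, 0.067 over that of the Nxf2 series and 0.095 over that of the HP1a series, each still beyond the largest control difference of 0.043. Past the limit, 15 bins were then higher over the Piwi-series control (6.12%, beside 3.71% of all eligible bins), 17 over the Nxf2-series control (6.94%, beside 3.71%) and 20 over the HP1a-series control (8.16%, beside 3.8%), a smaller excess than the 12.7% beside 4.73% over its own. With the contacts recovered from before ICE and the arm median taken off, the change was 0.058, and 8 bins (3.27%, beside 1.06%) passed the limit of that measure, 0.231.

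The rise in H1-KD, relative to the arm mean at each distance, was largest at 120 and 160 kb. The median change was 0.012 with the adjoining bin, 0.123 at 80 kb, 0.196 at 120 kb, 0.181 at 160 kb, 0.152 at 200 kb and 0.080 at 400 kb. At 120 and 160 kb, control pairs differed by no more than 0.056 and 0.069, and 91.0% and 88.2% of the low-density bins were higher. At 80 kb and at 400 kb the change was within the largest control difference of 0.126 and 0.090. Relative to the arm mean, contacts over 2 Mb away, which the rule did not use, decreased by 0.038 (largest control difference 0.026). Those with other arms, relative to bins of the same arm, decreased by 0.108 (0.056), with 7.76% of the bins higher. The medians of the other eligible bins were 0.002 and 0.006. As a share of the bin total, contacts over 2 Mb changed by 0.055 (84.5% of low-density bins higher). The share with other arms changed by -0.040. Both were within the largest control differences of 0.116 and 0.20.

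**Figure D5:**
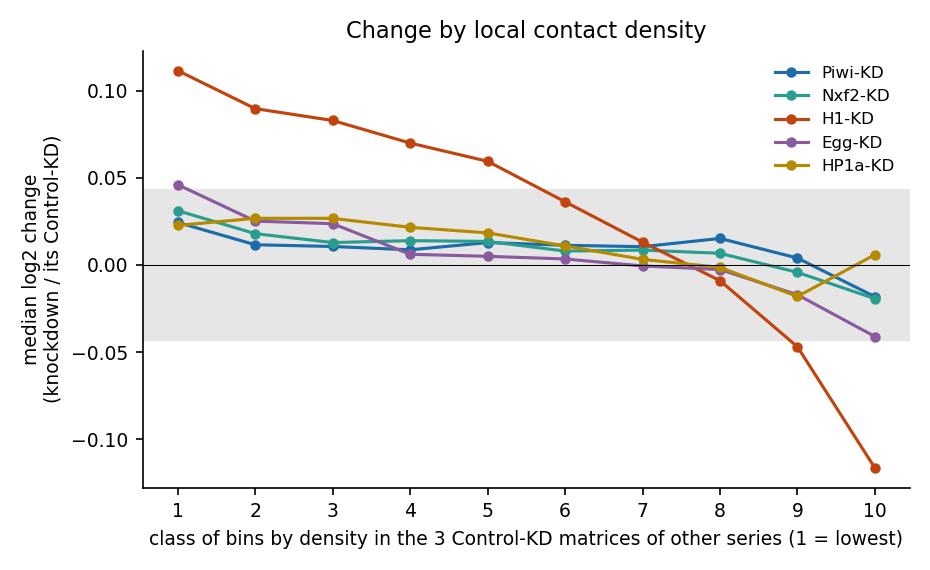
Median log2 change of local contact density against 10 equal classes of eligible bins by density in the 3 Control-KD matrices of other series, for the 5 knockdowns, with the largest median of a control pair over the low-density bins (0.043) as a grey band. In H1-KD the median fell from 0.112 in the lowest class to -0.116 in the highest.

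Across the range of density, low and dense bins moved in opposite directions in H1-KD relative to the arm mean. Because density is relative to that mean, a fall in dense bins and a rise in the rest are tied. With all eligible bins divided into 10 equal classes by their density in the controls of other series, the median was 0.112 in the lowest class, 0.060 in class 5, -0.0090 in class 8 and -0.116 in the highest. Opposite signs were not particular to H1-KD. The low-density bins and the highest 10% had medians of 0.114 and -0.118 in H1-KD, 0.048 and -0.042 in Egg-KD, 0.032 and -0.019 in Nxf2-KD, and 0.025 and -0.018 in Piwi-KD. Between controls, the Nxf2-series matrix over the one of H1-KD and Egg-KD gave 0.043 and -0.037, and the Piwi-series matrix over it 0.035 and -0.023, so the shared control itself had the stronger contrast. Over the Piwi, Nxf2 and HP1a-series controls, H1-KD gave -0.098, -0.066 and -0.099 in the highest 10%, values added after the data were seen. The ratio of the median density of the highest 10% to that of the low-density bins was 2.06 to 2.16 in the controls and 1.91 in H1-KD. The others had 2.03 (Piwi-KD), 1.99 (Nxf2-KD), 2.08 (Egg-KD) and 2.12 (HP1a-KD), so H1-KD had the smallest ratio of the 9 matrices. By share of the bin total at 40 to 400 kb, the H1-KD medians were -0.011 in low-density bins, -0.073 in the other eligible bins and -0.138 in the highest 10%. Those are not opposite in sign.

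The largest single increase in H1-KD was at chr2R:13440001-13480000, from 0.521 in its control to 0.656. The other controls of this bin had 0.587, 0.609 and 0.569, and 2 controls differed by 0.22. The next, chrX:19480001-19520000, rose from 0.657 to 0.809, a change of 0.30, with 0.714, 0.670 and 0.672 in the other controls. The largest decrease was at chr2R:2280001-2320000, from 0.661 to 0.510, a change of -0.37, and the same bin had the largest decrease in Egg-KD, to 0.574, with the same control. It had the fewest local contacts of the low-density bins, 948 in the shared control, 815 for Egg-KD and 681 for H1-KD, with counting errors of 3.25% to 3.83%. The other bin lower past the limit in H1-KD was chr2L:9640001-9680000, which fell from 0.689 to 0.597.

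Egg-KD gave a smaller and less stable pattern. Of the 245 low-density bins, 173 had a ratio above 0 (70.6%, beside 52.4% of all eligible bins). Over the same control, the Piwi-series control had 79.2% (beside 56.8%) and the Nxf2-series control 78.4% (beside 49.9%), both more than Egg-KD. The shared control over that of the HP1a series had 39.2% (beside 47.7%). Past the limit, 8 low-density bins were higher in Egg-KD (3.27%, beside 0.653% of all eligible bins) and 1 was lower (0.408%, beside 2.69%). The 8 lay in 7 runs. The excess did not hold over 2 of the other 3 controls: 0 bins were higher past the limit over the Piwi-series control (beside 0.49% of all eligible bins), 2 over the Nxf2-series control (0.816%, beside 0.857%) and 3 over the HP1a-series control (1.22%, beside 0.694%). With the contacts from before ICE there were 0 (beside 0.122%). The change rested on the longer distances, with a median of 0.119 at 360 kb (largest control difference 0.071) and 0.106 at 400 kb (0.090). It was -0.066 at 80 kb and -0.042 with the adjoining bin, both within the control differences. From 440 kb to 1 Mb, distances that the rule did not use, the median was 0.068 (0.050). There, 77.1% of the low-density bins were higher, and the median of the other eligible bins was 0.015. Summed over 40 to 200 kb only, the median was -0.014, and with the contacts from before ICE it was -0.015. Relative to bins of the same arm, Egg-KD contacts with other arms decreased by 0.059, just beyond the largest control difference of 0.056. As a share of the bin total the change was -0.085, within the largest control difference of 0.20. The largest increase in Egg-KD was at chrX:2000001-2040000, from 0.638 to 0.749, followed by chr2R:13440001-13480000, from 0.521 to 0.608, where it shares the low control value with H1-KD. The second largest decrease, at chr2L:6600001-6640000, was from 0.693 to 0.613 and did not pass the limit.

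Upon Piwi-KD, none of the low-density bins was higher past the limit (beside 0.0816% of all eligible bins) and 1 was lower (0.408%, beside 1.88%). Upon Nxf2-KD, again none was higher (beside 0.0816%) and 3 were lower (1.22%, beside 1.18%), a share close to that of all eligible bins. These lower bins lay in 1 run of 4 bins, chr2L:9520001-9680000. Its first bin had 0.613 in the control of Piwi-KD and 0.522 upon Piwi-KD, and 0.659 in the control of Nxf2-KD and 0.562 upon Nxf2-KD, log2 changes of -0.23 and -0.23 from separate controls. The second bin fell by 0.142 on the log2 scale in Piwi-KD and by 0.259 in Nxf2-KD, and the third by 0.139 and 0.186. In H1-KD these 3 bins had -0.050, -0.111 and -0.141, and in HP1a-KD -0.082, 0.027 and 0.004, none past the limit. The fourth bin, chr2L:9640001-9680000, had -0.128, -0.172, -0.207, -0.124 and -0.064 in the Piwi, Nxf2, H1, Egg and HP1a knockdowns. Only its H1-KD value passed the limit. All 4 bins of the run were below their control in Piwi-KD, Nxf2-KD, H1-KD and Egg-KD, against the direction of the median low-density bin. The fall was not confined to the run. The bins next to it, chr2L:9480001-9520000 and chr2L:9680001-9720000, were not low-density bins. They had -0.169 and -0.130 in Piwi-KD, -0.078 and -0.175 in Nxf2-KD, -0.219 and -0.113 in H1-KD, and -0.056 and -0.059 in Egg-KD. Of these, only the -0.219 in H1-KD passed the limit.

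The largest increases in Piwi-KD, chrX:12480001-12520000 from 0.619 to 0.688 and chr2L:5000001-5040000 from 0.506 to 0.557, and in Nxf2-KD, chr3L:3320001-3360000 from 0.711 to 0.796 and chr3R:19040001-19080000 from 0.644 to 0.718, stayed below the limit. At chr3R:19040001-19080000 the controls differed by up to 0.14, close to the change of 0.16.

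In HP1a-KD, at 2 days, 3 low-density bins were higher past the limit (1.22%, beside 1.63% of all eligible bins) and 2 lower (0.816%, beside 1.59%). Neither share exceeded that of all eligible bins. Those with the largest increase, chr2L:8280001-8320000 (0.569 in the control and 0.656 in HP1a-KD) and chr2L:8200001-8240000 (0.592 and 0.671), lie in the longest run. Those with the largest decrease were chrX:8200001-8240000 (0.727 and 0.632), the last bin inside the threshold and the one with the largest mean loss of rank, and chrX:7920001-7960000 (0.705 and 0.618). The share of the bin total taken by contacts 40 to 400 kb away rose in HP1a-KD by 0.323 (log2) in low-density bins and by 0.217 in the others, and the share with other arms decreased by 0.433 and decreased by 0.405. The largest control differences over low-density bins were 0.159 and 0.20. By distance, low-density bins were higher in HP1a-KD at short range, by 0.146 within the bin (89.4% of bins higher) and by 0.152 with the adjoining bin (92.7% higher), just beyond the largest control differences of 0.139 and 0.144. The other eligible bins had -0.023 and -0.013. At 200, 240 and 280 kb the medians were -0.042, -0.045 and -0.039, within the control differences. By density, which is relative to the arm, the median change was 0.025, while by sums before ICE with the arm median taken off it was -0.052, so its direction depended on the measure.

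The low-density bin with the largest mean gain of rank over the 5 knockdowns was chr3L:9760001-9800000, at the edge of the third longest run. Its density was 0.728, 0.664, 0.676 and 0.679 in the controls and 0.791, 0.733, 0.737, 0.781 and 0.754 in the Piwi, Nxf2, H1, Egg and HP1a knockdowns. All 5 knockdown values lay above the 4 controls, and only that of Egg-KD, a change of 0.21, passed the limit. Among other eligible bins the largest mean gain was at chr2R:14960001-15000000, which adjoins a low-density bin and had 0.826 to 0.995 in the controls and 0.868 to 1.10 in the knockdowns.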

How the data were processed

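Hi-C libraries of OSCs were cut with HindIII by the authors, who counted contacts between 40-kb bins with HiCExplorer, summed 2 replicates, removed bins of extreme coverage, applied ICE and scaled compared matrices against each other. The deposited values therefore hold a corrected contact signal made by the authors, not counts, on dm3, the build in the submitters' processing notes. The Hi-C aligner is not given in the sources used here. Samples of other assays (DamID-seq, ChIP-seq) were left out.

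Each value is a whole number of contacts times factors of its 2 bins, which were solved for. In 100% of values under 50 contacts the result lay within 0.01 of a whole number. Signal was divided by the arm mean at each distance among kept bins, with absent pairs as 0. Distal values were divided by the distal means of both bins. Changes are log2 ratios of a knockdown over the Control-KD of its series.

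The low-density bins, measures, limit and loci were chosen with earlier results of these data known. Named loci are the 5 runs of lowest mean rank, the 3 longest runs, the 3 bins on each side of the threshold, the 2 largest increases and decreases per knockdown, and the largest mean gains and losses of rank; the probe bins and the run on 2L were described after their values had been seen. Alternatives were other controls, thresholds, distances, arms, sums and recovered contacts. Scripts were tested on simulated matrices. Python 3.11.15, NumPy 2.4.6, pandas 2.3.3, SciPy 1.17.1 and Matplotlib 3.10.9 were used.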

Additional observations from a re-analysis of the deposited data

Results flagged for a closer look

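Of 25 quantities of the low-density bins compared over the 4 Control-KD matrices, 2 had a matrix far from the other 3, by a criterion that chance meets in about 1 of 20 groups. The mean share of the bin total within the bin itself was 7.83% in the HP1a-series Control-KD and 8.80% to 8.90% in the others. The coverage of low-density bins over that of other eligible bins was 1.067 in the Piwi-series Control-KD and 1.11 to 1.12 in the others.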

How the results depend on the processing

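No paired analysis was possible because the authors merged both replicates of each group into 1 matrix, and for the same reason no replicate was left out. Each knockdown had 20 alternatives for its median change, 1 of them and the alternatives for counts past the limit chosen after seeing the data. A value is said to move where it shifted by at least the root mean square of the control-pair medians, 0.0276 for changes, or by 1.68 percentage points for shares in the lowest 10%. Without single arms, with the lowest 5% or 20%, with 1 bin for each run, away from removed bins, at least 4 Mb from arm ends or with bins chosen on 3 other controls, none of the 5 medians moved.

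Over the Control-KD that H1-KD and Egg-KD share, the median change was 0.059 in Piwi-KD and 0.074 in Nxf2-KD, and over that of the HP1a series 0.060 in Nxf2-KD. Over the controls of the Piwi and Nxf2 series it was 0.070 and 0.067 in H1-KD, and 0.016 and 0.0053 in Egg-KD. With sums of the deposited signal minus the arm median it was 0.059 with H1-KD, -0.0030 with Egg-KD and 0.095 with HP1a-KD. With recovered contacts it was 0.0038 in Nxf2-KD, 0.058 with H1-KD, -0.015 with Egg-KD and -0.052 with HP1a-KD, and with recovered contacts over the total of the bin in its arm 0.035 in H1-KD and -0.017 in Egg-KD. At 40 to 200 kb it was -0.014 in Egg-KD and 0.067 in HP1a-KD, and at 200 to 400 kb 0.090 and -0.013. The direction thus held under all 20 alternatives in H1-KD, Nxf2-KD and Piwi-KD and changed in Egg-KD under 4 and in HP1a-KD under 2. The cause was not tested.

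The share of bins in the lowest 10% was 78.8% in Piwi-KD with bins chosen on 3 other controls. At 80 to 400 kb it was 78.0%, 77.6%, 77.1% and 78.4% in Piwi-KD, Nxf2-KD, H1-KD and Egg-KD. With recovered contacts it was 21.6%, 20.4%, 22.0%, 20.4% and 25.3% in the Piwi, Nxf2, H1, Egg and HP1a knockdowns, and over the total of the bin 46.5%, 45.3%, 49.4%, 45.7% and 44.5%. The mean over controls of contacts between low-density bins was 1.16 from 4 Mb on and 1.56 without correction for the distal total, beside 1.17, and that of crossing contacts 0.591 up to 200 kb, beside 0.616. In H1-KD, 8 bins were higher past the limit with recovered contacts (1.06% of all eligible bins were) and 15, 17 and 20 over the controls of the Piwi, Nxf2 and HP1a series (3.71%, 3.71% and 3.8%), where 31 were over its own. In Egg-KD, 0 were with recovered contacts (0.122%) and 0, 2 and 3 over those controls (0.49%, 0.857% and 0.694%), where 8 were over its own, so the excess over all eligible bins was lost with recovered contacts and over the Piwi and Nxf2-series controls.

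The counting error of the local contacts was at most 1.41% for the median low-density bin and 3.83% for the one with the fewest. Merged replicates leave the spread within an experiment unknown, and 4 controls give few differences to compare with. Adjoining bins share the contact between them and most of their partner bins, and the ICE correction ties local to distal signal.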
